A study of Mus musculus with 4 samples.

Results

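The miR-148 and miR-152 family comprises the mature miRNAs of 3 mouse loci, Mir148a, Mir148b and Mir152. Its 6 members, the 5p and the 3p arm of each hairpin, were chosen by name from the 1900 mature miRNA names of the count table, where each name begins with mmu for mouse. The table describes 4 small RNA libraries, made after RNA immunoprecipitation (RIP) for Argonaute2 (AGO2), the protein that holds a mature miRNA on its target RNA, from freshly dissected olfactory bulb of C57BL/6 mice. The GFP-AGO2 group (2 libraries, replicates 1 and 3) came from mice injected with the viral vector LV.PGK.GFP-AGO2, which by its name carries AGO2 with green fluorescent protein. The Control group (2 libraries, also replicates 1 and 3) came from sham-injected mice without vector, and in both groups tissue was taken 8 weeks after injection. The design text speaks of newborn neurons of the olfactory bulb, but the labelled source is the whole bulb tissue. PGK names a promoter that is active in many cell types, but which cells carried the vector is not stated in the labels. The age of the mice and the antibody used for the RIP are likewise not stated, so the RNA of the Control libraries could be that of endogenous AGO2 or carry-over of the procedure.

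The libraries held 1858354 to 2809758 miRNA counts in GFP-AGO2 and 673916 to 1006861 in Control. The neuronal miR-124-3p was present in all of them, at 5277 to 6309 CPM (counts scaled to a common library size) in GFP-AGO2 and 5618 to 7280 CPM in Control. Whether replicates are different mice is not labelled, and p-values therefore speak only of how far these 4 libraries varied, which can be technical. In bulk tissue, fewer cells of a type and less RNA per cell cannot be told apart.

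A miRNA recognises its targets mainly through its seed, bases 2 to 8 from the 5′ end, so miRNAs that share a seed are counted as 1 family. The 3p arms of the miR-148 and miR-152 hairpins share theirs. They are the arms usually loaded into Argonaute, and the 5p arms are the passenger strands. Family members are known to repress DNA methyltransferase genes, and miR-148a in liver is known for repressing the low-density lipoprotein receptor and the cholesterol transporter Abca1. The mature sequences of all members, from RefSeq (GRCm38.p6), are shown with the seed in capitals because the seeds define which arms belong together.
mmu-miR-148a-3p: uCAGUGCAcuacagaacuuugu
mmu-miR-148b-3p: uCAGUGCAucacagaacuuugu
mmu-miR-152-3p: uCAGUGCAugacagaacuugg
mmu-miR-148a-5p: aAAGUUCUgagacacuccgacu
mmu-miR-148b-5p: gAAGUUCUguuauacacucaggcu
mmu-miR-152-5p: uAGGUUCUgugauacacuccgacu
The 3p arms carried the same seed, and no other name with a RefSeq sequence carried it. MiR-148a-3p and miR-148b-3p were alike at 20 of 22 bases, with the differences C9U and U10C, given as the base of miR-148a-3p, the position from the 5′ end and the base of miR-148b-3p. Over its 21 bases miR-152-3p differed from miR-148a-3p by C9U, U10G and U20G, and from miR-148b-3p by C10G and U20G. The members can thus be told apart by reads that are correct at positions 9 and 10. How many mismatches the authors allowed is not stated in the labels or the file header. Among the 5p arms, miR-148a-5p and miR-148b-5p shared a seed and miR-152-5p had another.

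All 6 names had a single position in the table, at exactly the place RefSeq gives, and none overlapped another name. Mir148a lies on the minus strand of chromosome 6 (chr6:51269812-51269910, mm10) outside any annotated gene except its own miRNA gene. The nearest protein-coding gene was Nfe2l3, at 162820 bases from miR-148a-3p. Mir148b (chr15:103285125-103285221, plus strand) lies in an intron of Copz1, and Mir152 (chr11:96850393-96850465, plus strand) in an intron of Copz2, each on the strand of its host gene. Copz1 and Copz2 are paralogs that encode the zeta subunits of the coatomer of COPI vesicles. The nearest other miRNA names were miR-6963-3p, 65249 bases from miR-148b-3p, miR-8103, 213370 bases from miR-152-3p, and miR-6371, 697348 bases from miR-148a-3p. Of these miR-8103 alone had counts, 39 and 7 in GFP-AGO2 and 8 and 4 in Control. The hairpins are shown with both mature arms in capitals, 5p first, since the arms of Mir148b behaved differently in the libraries.
Mir148a: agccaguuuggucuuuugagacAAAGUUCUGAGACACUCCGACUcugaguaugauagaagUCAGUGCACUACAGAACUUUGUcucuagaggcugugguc
Mir148b: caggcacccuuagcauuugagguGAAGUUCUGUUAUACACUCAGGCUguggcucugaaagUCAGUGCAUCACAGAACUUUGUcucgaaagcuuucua
Mir152: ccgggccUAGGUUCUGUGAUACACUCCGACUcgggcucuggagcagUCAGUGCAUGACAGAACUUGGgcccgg

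In these libraries the counts of the family came mostly from its 3p arms. The 3p arms together took 0.0836% (95% exact interval 0.0803 to 0.0871) and 0.159% (0.154 to 0.165) of the miRNA counts in GFP-AGO2 replicates 1 and 3. In Control replicates 1 and 3 they took 0.247% (0.238 to 0.257) and 0.182% (0.172 to 0.193). Both GFP-AGO2 libraries lay below both Control libraries, with group means of 0.121% ± 0.0534 in GFP-AGO2 and 0.215% ± 0.0462 in Control (SD, n = 2 each). In either group the replicates stood further apart than the nearest libraries of the groups did. The difference of -0.0933 percentage points was -0.0556 without GFP-AGO2 replicate 1 and -0.0607 without Control replicate 1. These Clopper-Pearson intervals describe counting error alone, because copies made by PCR were counted like separate molecules. When names were summed by seed, over the 1603 names with a RefSeq sequence, the shared 3p seed ranked at places 56 and 43 among 1335 seeds in the GFP-AGO2 libraries and at places 29 and 31 in the Control libraries. The 5p arms together had 125 and 109 counts in the GFP-AGO2 libraries, against 18 and 10 in the Control libraries.

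Within the family, miR-148a-3p led in 3 of the 4 libraries. It made up 40.0% and 60.9% of the 3p counts in GFP-AGO2 replicates 1 and 3, against 69.7% and 64.4% in Control replicates 1 and 3. MiR-148b-3p made up 41.7% and 25.8% in GFP-AGO2, against 18.3% and 20.6% in Control. In GFP-AGO2 replicate 1 miR-148a-3p and miR-148b-3p were thus level, with 941 and 979 counts, and in the other libraries miR-148a-3p was ahead. MiR-152-3p was the least abundant 3p arm everywhere, at 18.3% and 13.3% in GFP-AGO2 and 12.0% and 15.0% in Control. The 3p arms are 21 or 22 bases long, so these counts compare reads of nearly equal length. Differences between sequences in adapter ligation were not measured.

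**Figure D1:**
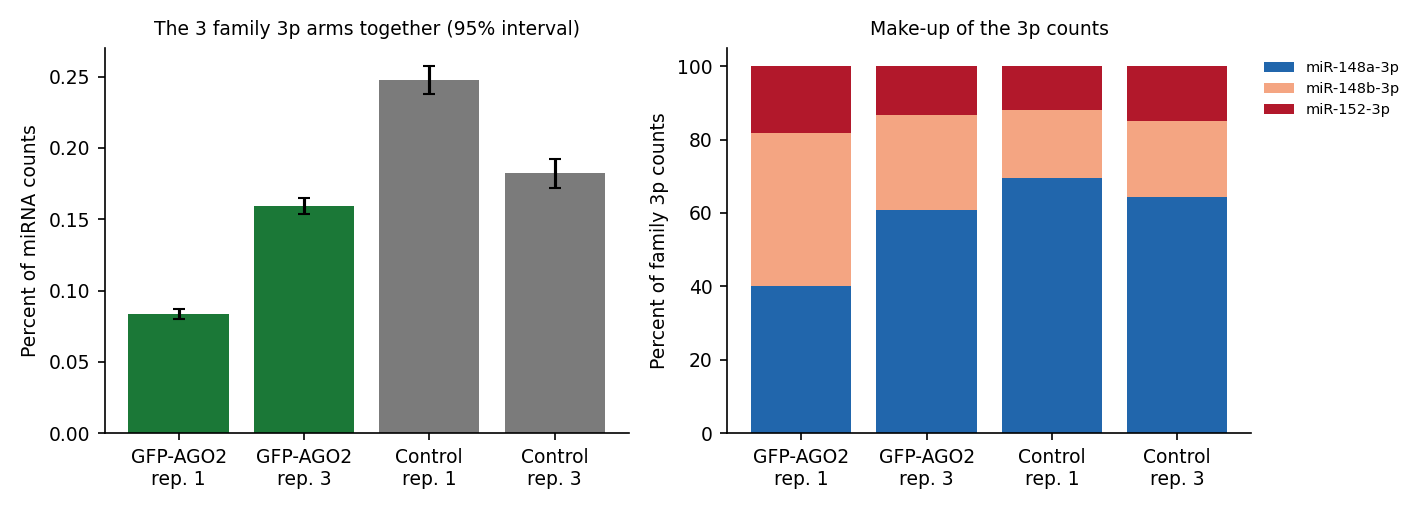
Left, the summed counts of miR-148a-3p, miR-148b-3p and miR-152-3p as a percent of all miRNA counts in each library, with 95% exact intervals; right, how these counts divide among the 3 arms, as a percent of the family's 3p counts. The family share is lowest in GFP-AGO2 replicate 1, at 0.0836%, the library in which miR-148b-3p (41.7%) is level with miR-148a-3p (40.0%).

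Setting GFP-AGO2 beside Control addresses which miRNAs took another proportion of the immunoprecipitate when the vector had been injected. Of the 6 members, 4 passed the filter on low counts and were tested with edgeR's quasi-likelihood test beside all other miRNAs, 457 in all. MiR-148b-5p was called higher in GFP-AGO2 and miR-152-3p lower, while miR-148a-3p and miR-148b-3p did not pass. A call is an adjusted p under 0.05, with the Benjamini-Hochberg adjustment over the 457 miRNAs. Of these, 17.3% were called higher and 17.1% lower, so 1 call in each direction among 4 members is near the share found in the whole table. The median log2 fold change (GFP-AGO2 over Control) was -0.61 over the 4 tested members and -0.87 over the 3p arms, against -0.01 over all tested miRNAs. CPM values below are counts divided by the library size scaled with edgeR's TMM factors. On this scale both GFP-AGO2 libraries lay on one side of both Control libraries for all 4 tested members, 3 below and 1 above, but for miR-148b-3p the groups overlapped when counts were divided by library totals alone. Of all tested miRNAs, 35.2% were separated downward and 36.8% upward.

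MiR-152-3p fell. It had 145 and 193 CPM in GFP-AGO2 replicates 1 and 3, against 312 and 304 CPM in Control replicates 1 and 3. The Control libraries were nearly equal, and both GFP-AGO2 libraries were well below them. The log2 fold change was -0.87 (SE 0.20; edgeR adjusted p = 0.0256), a level 54.8% of that in Control, with means of 169 ± 34.4 CPM in GFP-AGO2 and 308 ± 5.73 CPM in Control (SD, n = 2 each). The call is a narrow one. It was lost without GFP-AGO2 replicate 1 (-0.67), without Control replicate 1 (-0.80) and without Control replicate 3 (-0.93). It was also lost with library totals in place of TMM factors (-0.65, edgeR adjusted p = 0.0721) and with no filter (-0.63, edgeR adjusted p = 0.0613). The sign turned with no scaling at all (0.77, edgeR adjusted p = 0.219). The median of all miRNAs was then 1.67, and miR-152-3p still lay below it.

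MiR-148a-3p, the most abundant member, had the largest downward difference in the family and did not pass the edgeR test. It had 317 and 884 CPM in GFP-AGO2 replicates 1 and 3, against 1804 and 1304 CPM in Control replicates 1 and 3. The groups did not overlap, but the GFP-AGO2 libraries stood 2.79-fold apart, and 5.69% of the tested miRNAs had a wider gap between those libraries. The Control libraries stood 1.38-fold apart, a gap exceeded by 35.4% of the tested miRNAs. The log2 fold change was -1.38 (SE 0.50; edgeR adjusted p = 0.0887, unadjusted p = 0.0377), with means of 600 ± 401 CPM in GFP-AGO2 and 1554 ± 353 CPM in Control (SD, n = 2 each). DESeq2 called it lower (-1.39, adjusted p = 0.00282), as did edgeR with no filter (-1.15, adjusted p = 2.92e-07) and with replicate number added as a blocking term (-1.54, adjusted p = 0.0136). These calls depend on the fit, since the counts were the same. The spread was estimated in another way, and with no filter and with the block the log2 fold change moved as well. With no filter the SE was 0.20, in place of 0.50. Replicate 3 lay above replicate 1 in GFP-AGO2 and below it in Control, so a shared replicate term cannot account for both gaps. Leaving out GFP-AGO2 replicate 3 gave -2.30, and leaving out GFP-AGO2 replicate 1 gave -0.82. Both of these fits took their spread from the Control libraries alone, so their calls (adjusted p = 3.56e-18 and 0.000839) leave out the wide gap between the GFP-AGO2 libraries.

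MiR-148b-3p showed the smallest difference. It had 329 and 374 CPM in GFP-AGO2 replicates 1 and 3, against 474 and 418 CPM in Control replicates 1 and 3. Both GFP-AGO2 libraries were lower on this scale, but the nearest libraries of the groups were no further apart than the replicates of a group. Divided by library totals alone, its counts gave 348 and 410 CPM in GFP-AGO2, against 453 and 375 CPM in Control, so the groups overlapped, and the log2 fold change was -0.13 (edgeR adjusted p = 0.645). The log2 fold change was -0.34 (SE 0.16; edgeR adjusted p = 0.165), with means of 352 ± 31.4 CPM in GFP-AGO2 and 446 ± 39.9 CPM in Control (SD, n = 2 each). With no scaling, which moved the median log2 fold change of all miRNAs to 1.67, the sign turned for each 3p arm, to 1.30 for miR-148b-3p (adjusted p = 0.0415), 0.77 for miR-152-3p and 0.12 for miR-148a-3p. All of these still lay below that median.

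**Figure D2:**
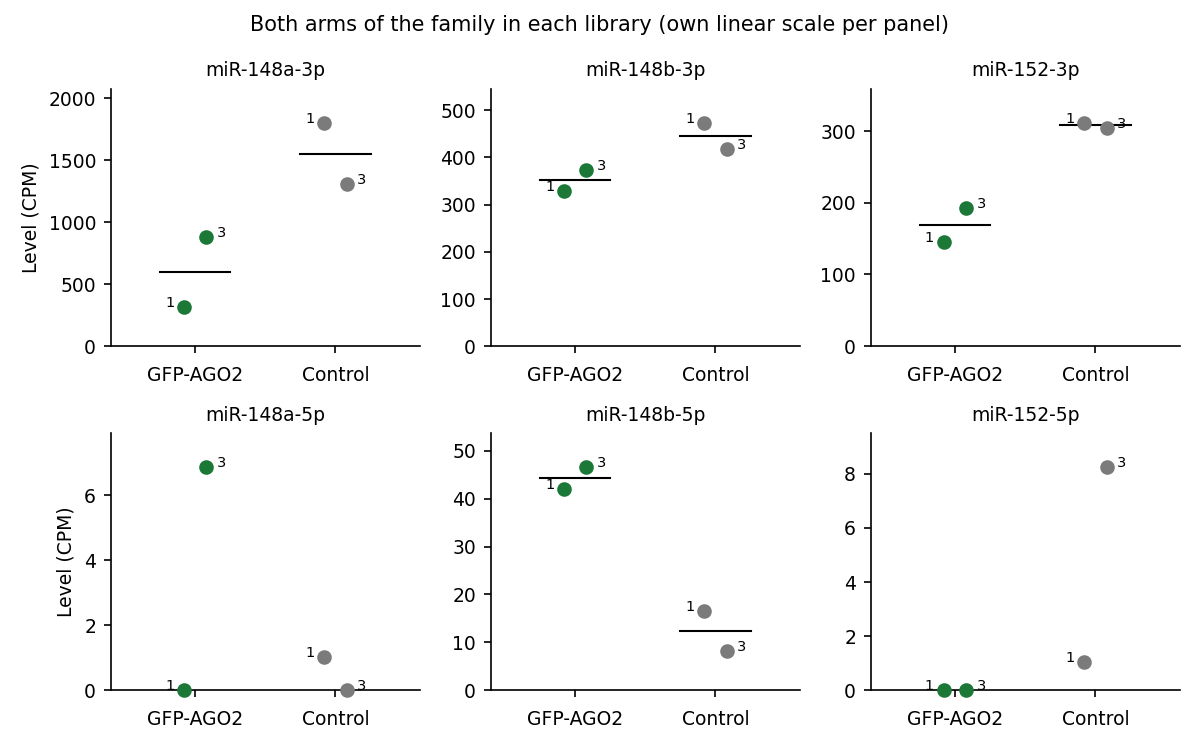
Level of each of the 6 members in CPM (linear axes, 1 scale per panel), with GFP-AGO2 left and Control right; points are libraries, numbered by replicate, and lines are group means, drawn where a member was tested. The 3p arms (upper row) are lower in both GFP-AGO2 libraries on this TMM scale, miR-148b-5p is higher in both, at 42.1 and 46.6 CPM against 16.6 and 8.25 CPM, and miR-148a-5p and miR-152-5p lie at or near 0.

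MiR-148b-5p, the passenger strand of Mir148b, rose, while its partner arm was not called. It had 125 and 95 counts in GFP-AGO2 replicates 1 and 3, against 16 and 5 counts in Control replicates 1 and 3. In CPM these were 42.1 and 46.6 in GFP-AGO2, against 16.6 and 8.25 in Control, so the GFP-AGO2 libraries agreed closely and stood well above both Control libraries. The log2 fold change was 1.78 (SE 0.44; edgeR adjusted p = 0.0293), or 3.43-fold, with means of 44.3 ± 3.22 CPM in GFP-AGO2 and 12.4 ± 5.92 CPM in Control (SD, n = 2 each). The value rests on few Control counts. Dropping Control replicate 3 gave 1.37 and ended the call (adjusted p = 0.0802). Dropping Control replicate 1 gave 2.47 and kept it (adjusted p = 0.04), but there the lone Control library had 5 counts and the spread came from the GFP-AGO2 libraries alone, which stood 1.11-fold apart, against 1.88-fold for the Control libraries.

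The arms of 1 hairpin can be set against each other within a library, which needs no scaling. The 5p arm made up 11.3% (95% exact interval 9.51 to 13.3) and 11.1% (9.06 to 13.4) of the Mir148b counts in GFP-AGO2 replicates 1 and 3. In Control replicates 1 and 3 it made up 3.39% (1.95 to 5.45) and 1.94% (0.632 to 4.46). The intervals of the groups do not meet, but they describe counting error alone and not how far libraries vary. On the log2 scale, with 0.5 added to each count, the 5p to 3p ratio was -2.98 ± 0.0232 in GFP-AGO2 and -5.16 ± 0.521 in Control (SD, n = 2 each), a difference of 2.18. An exact two-sided permutation test of this difference gave p = 0.333, the smallest value that 2 libraries against 2 can give. Adjusted over the 4 ratios compared in this way, it was 0.444.

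The other passenger strands were too rare to test. MiR-148a-5p had 0 and 14 counts in GFP-AGO2 replicates 1 and 3, against 1 and 0 counts in Control replicates 1 and 3. All but 1 of its counts thus came from GFP-AGO2 replicate 3, where it made up 0.771% (95% exact interval 0.422 to 1.29) of the Mir148a counts. In GFP-AGO2 replicate 1, the deepest library, its count of 0 stood beside 941 counts of the 3p arm. The exact 95% interval of that share reaches 0.391%, and the limit of 3 counts that is commonly set for a count of 0 is 0.319%. MiR-152-5p had 0 and 0 counts in GFP-AGO2 replicates 1 and 3, with exact 95% intervals that reach 0.854% and 0.932% of the Mir152 counts and limits at 3 counts of 0.698% and 0.761%. In Control replicates 1 and 3 it had 1 and 5 counts, or 0.332% (0.00841 to 1.84) and 2.65% (0.864 to 6.06). The miR-152 counts therefore gave no 5p arm in the group in which the Mir148b 5p arm was highest, with exact intervals that reach up to 0.932% of the hairpin. Without a filter both arms entered the edgeR test and neither was called (adjusted p = 0.456 for miR-148a-5p and 0.153 for miR-152-5p).

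**Figure D3:**
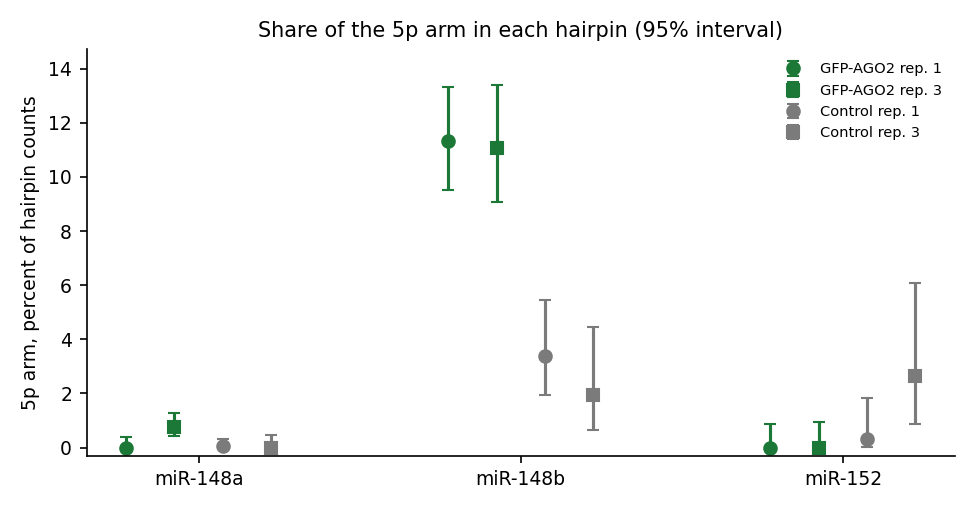
Share of the 5p arm among the counts of each hairpin, in percent, for each library, with 95% exact intervals; green marks GFP-AGO2 and grey Control, circles replicate 1 and squares replicate 3. For miR-148b the GFP-AGO2 libraries sit at 11.3% and 11.1% and the Control libraries at 3.39% and 1.94%, and for miR-148a and miR-152 the highest library is at 2.65%.

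The proportions among the 3p arms, which likewise need no scaling, were compared as log2 ratios within libraries. Together with the arm ratio of Mir148b these were 4 ratios, each tested by an exact two-sided permutation test and adjusted over the 4. MiR-148a-3p stood to miR-148b-3p at -0.06 and 1.24 in GFP-AGO2 replicates 1 and 3, against 1.93 and 1.64 in Control replicates 1 and 3. The groups did not overlap, and the difference of means was -1.19 (exact p = 0.333, adjusted p = 0.444), but the GFP-AGO2 replicates differed from each other by more than that. Without GFP-AGO2 replicate 1 the difference was -0.54, and without GFP-AGO2 replicate 3 it was -1.84. MiR-152-3p stood to miR-148b-3p at -1.19 and -0.95 in GFP-AGO2, against -0.60 and -0.46 in Control, a difference of -0.54 that exceeded the SDs of 0.17 in GFP-AGO2 and 0.10 in Control (exact p = 0.333, adjusted p = 0.444). MiR-148a-3p to miR-152-3p gave 1.13 and 2.19 in GFP-AGO2, against 2.53 and 2.10 in Control, and here the groups overlapped (difference -0.65, exact p = 0.667, adjusted p = 0.667). Without GFP-AGO2 replicate 1 that difference was -0.12.

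**Figure D4:**
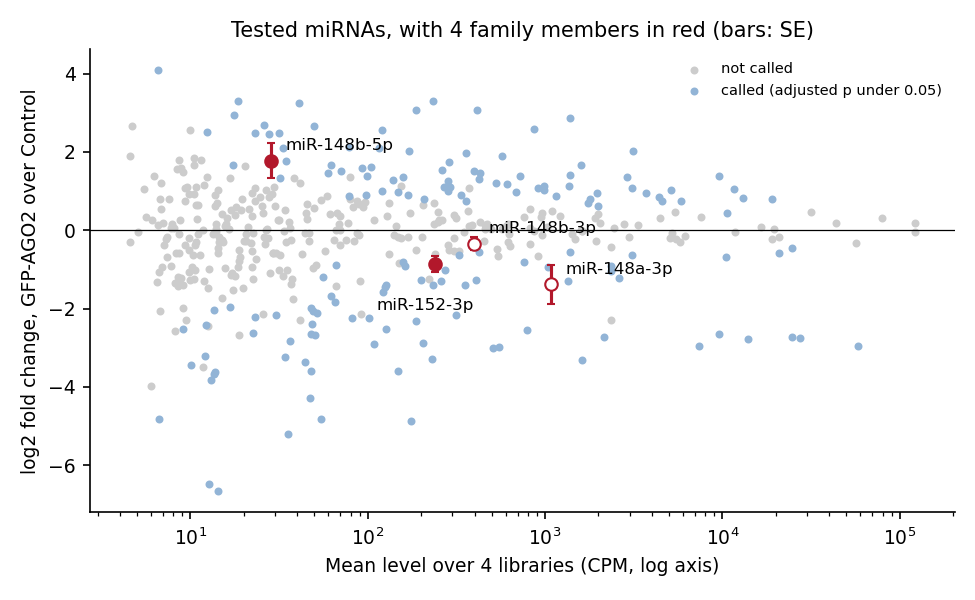
Log2 fold change (GFP-AGO2 over Control) of the 457 tested miRNAs against their mean level over the 4 libraries in CPM (log axis); blue points are called, grey ones are not, and the 4 tested family members are red with their SE, filled where called. MiR-148b-5p (1.78) lies among the called rises and miR-152-3p (-0.87) among the called falls, while miR-148a-3p (-1.38) and miR-148b-3p (-0.34) are open.

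Some names on lists of cell type markers were called in the same libraries, where 17.3% of all tested miRNAs were called higher and 17.1% lower. For vascular markers the 6 names on the list summed to 276 and 1353 CPM in GFP-AGO2 replicates 1 and 3, against 4527 and 3457 CPM in Control replicates 1 and 3. The immune sums ranked the libraries in the same order, which on the TMM scale is also that of miR-148a-3p, miR-148b-3p and miR-152-3p. For miR-148b-3p that order was lost with library totals alone. The red blood cell and epithelial sums did not rank so, with Control replicate 3 above Control replicate 1, nor did the neuronal sums. The vascular and immune sums each came mostly from 1 name. MiR-143-3p had 267 and 1325 CPM in GFP-AGO2, against 4438 and 3350 CPM in Control (edgeR adjusted p = 0.0637). MiR-146a-5p had 57.2 and 174 CPM in GFP-AGO2, against 556 and 479 CPM in Control (edgeR adjusted p = 0.0281). A rank order over 4 libraries cannot tell which cells a miRNA came from. Of the 6 vascular names 4 had counts, 3 were tested and 1 fell. The endothelial miR-126a-3p and miR-126a-5p were listed at 0 in every library. Both overlap another name in the annotation, as do miR-142-3p and the miR-486 arms below, and counting without strand or overlap options gives such reads to neither name, so their 0 says nothing of the level. Immune markers (10 names in the table, 8 with counts, 4 tested, 2 lower; miR-142-3p and miR-146a-3p at 0) summed to 75.0 and 215 CPM in GFP-AGO2, against 660 and 604 CPM in Control. For red blood cells (5 names in the table, 3 with counts, 1 tested, 1 lower; miR-486 at 0) the sums were 0.337 and 4.42 CPM in GFP-AGO2, against 31.2 and 39.6 CPM in Control. The epithelial miR-200 and sensory miR-183 names (16, all with counts, 13 tested, 13 lower) summed to 24650 and 46526 CPM in GFP-AGO2, against 250345 and 260332 CPM in Control. The neuronal list (8 names, all tested, 2 higher, 1 lower) summed to 17858 and 15664 CPM in GFP-AGO2, against 13765 and 16346 CPM in Control. Its few calls are near the shares over all tested miRNAs. The part of these cell types in the levels of the family was not tested. With the miR-200 and miR-183 names left out before scaling, the log2 fold changes of miR-152-3p and miR-148a-3p were -0.86 and -1.38. This changes only which names were scaled and fitted. Any family counts from cells that hold those names stay in, so it does not test their part.

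MiRNAs that share a target or a sequence feature with the family were set beside it. Of the other miRNAs known to repress DNA methyltransferase genes, those of the miR-29 family, 1 of 3 tested members fell and none rose, with a median log2 fold change of -0.31. The faller, miR-29c-3p, had 29.6 and 38.8 CPM in GFP-AGO2, against 78.0 and 77.6 CPM in Control (log2 fold change -1.19, SE 0.29, edgeR adjusted p = 0.028). MiR-29a-3p, by far the most abundant of them, had 4930 and 5389 CPM in GFP-AGO2, against 6582 and 6230 CPM in Control (-0.31, adjusted p = 0.12), and miR-29b-3p had -0.17 (adjusted p = 0.55). Of 8 miRNAs known to act on cholesterol and lipid genes, 7 were tested, 1 fell and none rose, with a median of -0.37. The one that fell was miR-185-5p, at 137 and 166 CPM in GFP-AGO2, against 403 and 333 CPM in Control (-1.28, SE 0.20, adjusted p = 0.00778). The most abundant of this list, miR-27b-3p and miR-128-3p, had 0.42 (adjusted p = 0.136) and 0.18 (adjusted p = 0.46). Against the background shares of 17.3% and 17.1%, no more than 1 call in lists of this size says little of the lists.

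The 6 bases AGUGCA of the family's seed also stand in other seeds, 1 base further to the 5′ end in the miR-130 and miR-301 seed. Of 12 names that hold these 6 bases within bases 2 to 8, 9 lay outside the family, and 6 of those had counts. Together the 9 took 0.00413% and 0.00441% of the counts in GFP-AGO2, against 0.00536% and 0.00683% in Control, a small fraction of the family's own share in every library. Of 5 listed miR-130 and miR-301 names 3 were tested and none was called, with a median of -0.37. Of the pair with the highest levels, miR-130a-3p had 19.5 and 26.5 CPM in GFP-AGO2, against 26.0 and 33.0 CPM in Control (-0.35, SE 0.39, adjusted p = 0.529), and its groups overlapped. MiR-301a-3p had 9.42 and 6.38 CPM in GFP-AGO2, against 5.20 and 16.5 CPM in Control (-0.37, SE 0.74).

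The miRNAs whose levels followed each 3p arm most closely over the 4 libraries were found by the root-mean-square distance between log2 CPM values, each centred on its own mean, among 195 other miRNAs of at least 100 CPM on average. This is a description over 4 libraries that share their scaling. Closest to miR-148b-3p were miR-151-3p, miR-29a-3p and miR-139-3p, at distances of 0.03, 0.04 and 0.08 log2 units, where the median miRNA lay at 0.42. Closest to miR-152-3p were miR-423-5p, miR-328-3p and miR-22-3p, at 0.11, 0.12 and 0.13 (median 0.62). MiR-148a-3p had no close match, with miR-744-5p, miR-378a-3p and miR-30c-2-3p at 0.38, 0.39 and 0.41 (median 1.00). Its own centred profile was -1.51 and -0.03 in GFP-AGO2 replicates 1 and 3, against 1.00 and 0.53 in Control replicates 1 and 3, whereas miR-744-5p had -0.92 and -0.32 in GFP-AGO2, against 0.63 and 0.61 in Control.

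**Figure D5:**
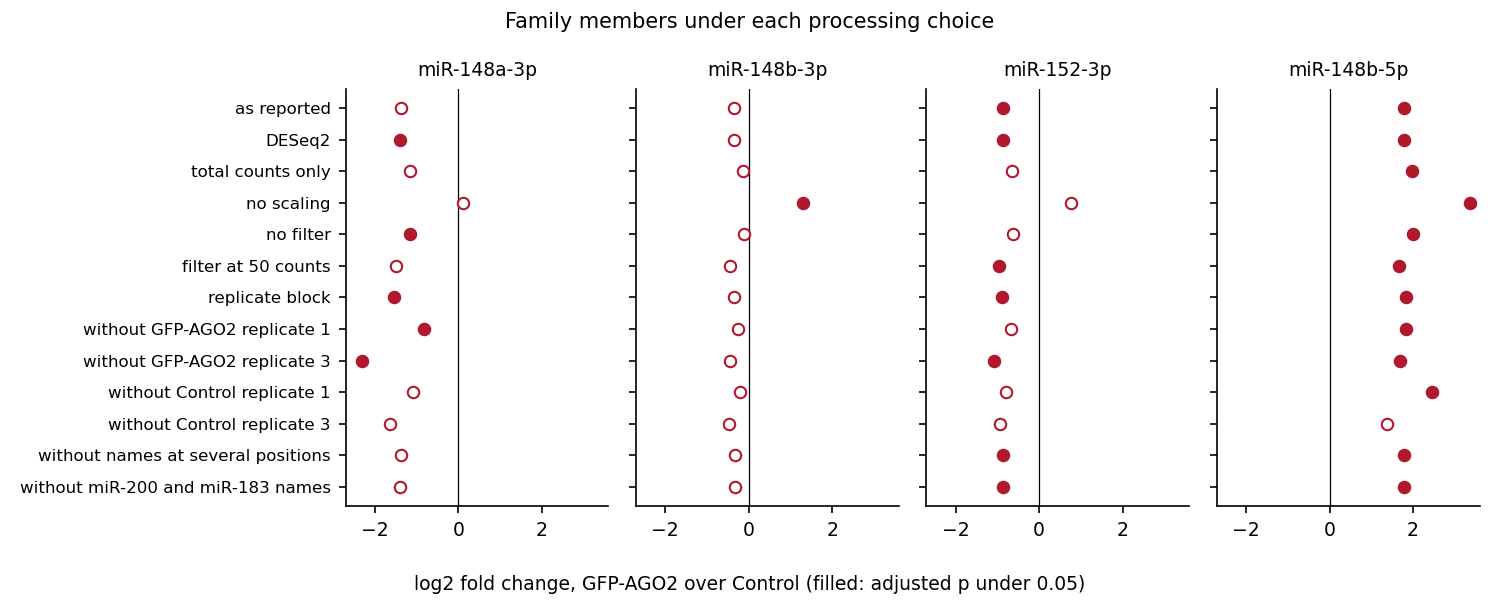
Log2 fold change (GFP-AGO2 over Control) of the 4 tested members as reported and under each other processing choice; filled points have an adjusted p under 0.05. MiR-148b-5p stays between 1.37 and 3.37, and each 3p arm stays below 0 except with no scaling, where all 3 lie above 0.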

How the data were processed

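The authors deposited raw counts for each mature miRNA, obtained per the file headers by running featureCounts 1.4.6-p1 on primary alignments against a miRBase annotation of the mouse genome (mm10), with neither a strand option nor one for reads that overlap several names. Cutadapt and STAR are named, without a version, per the submitters' processing notes. Columns were tied to samples by title. Changes were tested with edgeR 4.0.16 (R 4.3.3) by its quasi-likelihood F test (two-sided), fitted to all 4 libraries, with TMM factors, no covariate and filterByExpr at a minimum count of 10, which kept 99.88% to 99.93% of the counts. DESeq2 1.42.0 was an alternative. The fit was tested on simulated data with known changes, in which each miRNA had the typical spread for its level. That test therefore does not cover miRNAs with a wide gap between replicates, such as miR-148a-3p. Sequences came from RefSeq (GRCm38.p6) and gene context from GENCODE vM21, both on the build of the files. The replicate numbers 1 and 3 occur in both groups, and nothing says that they pair the libraries.

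The members and lists were chosen with earlier results of these data known. The miRNAs named were all 6 members, for each tested 3p arm the 3 miRNAs nearest in pattern, the 2 most abundant tested members of the methyltransferase, lipid and miR-130 lists, and the called members of those lists. The called members were added after their values were seen, as were miR-124-3p, miR-143-3p and miR-146a-5p.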

Additional observations from a re-analysis of the deposited data

How the results depend on the processing

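Of the 457 tested miRNAs 79 were called higher and 78 lower. With no scaling 281 of 469 were called higher and 20 lower, and this split follows the shift of the median of all miRNAs to 1.67. With library totals alone the median was 0.20, and 100 were called higher and 66 lower. Leaving out 1 library gave 47 to 94 rises and 43 to 106 falls, the fewest when Control replicate 1 was dropped (47 and 43), with 49 and 53 when Control replicate 3 was dropped. A replicate block gave counts of 79 and 85. Deviations of the same-numbered libraries had a correlation of -0.06 over miRNAs, so the numbers were not taken to pair the libraries. The block gave miR-148a-3p a log2 fold change of -1.54 (adjusted p = 0.0136) and changed no other call in the family.

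MiR-148a-3p was also called lower with DESeq2 (-1.39) and with no filter (-1.15), calls that depend on the fit, since its counts were the same. It ranged from -2.30 to -0.82 with 1 library left out. MiR-152-3p was not called with library totals alone (-0.65) or no filter (-0.63), nor in 3 of the 4 fits with 1 library left out, and ranged from -1.09 to -0.67. MiR-148b-5p ranged from 1.37 to 2.47, and lost its call without Control replicate 3. MiR-148b-3p ranged from -0.47 to -0.20 and was called in none of those fits, with -0.13 with library totals alone. With no scaling miR-148a-3p, miR-148b-3p and miR-152-3p had 0.12, 1.30 and 0.77. These unscaled values carry the greater depth of the GFP-AGO2 libraries, and the median of all miRNAs was then 1.67. Why the members differed between the groups was not tested. The family share differed by -0.0933 percentage points, by -0.155 when the denominator held no miR-200 or miR-183 counts, by -0.0898 over all 6 members and by -0.131 to -0.0556 with 1 library left out. With 1 library left out, the ratio differences ranged from -1.84 to -0.54 for miR-148a-3p to miR-148b-3p, from -1.19 to -0.12 for miR-148a-3p to miR-152-3p, from -0.66 to -0.42 for miR-152-3p to miR-148b-3p and from 1.81 to 2.55 for the arms of Mir148b, and none changed sign, nor with 2 in place of 0.5 added to each count. Depth limits the 5p arms most, with 0 to 125 counts each.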

Other observations

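The change in arm proportion at Mir148b was large among hairpins. In 109 hairpins both arms were tested, and the log2 fold change of the less abundant arm minus that of the more abundant arm had a median of -0.06, with 51 of 109 above 0. Mir148b, at 2.12, held place 5 from the top. Its less abundant arm had only 16 and 5 counts in Control replicates 1 and 3, and few counts widen such differences. In 17 of the 109 hairpins the less abundant arm was called higher and in 13 it was called lower. In 9 of the 17, Mir148b among them, the more abundant arm was not called higher. These values rest on the same libraries and the same fit as the comparison of miR-148b-5p and are a description.

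In abundance over single names, miR-148a-3p held places 135 and 87 in GFP-AGO2 replicates 1 and 3, against places 55 and 68 in Control replicates 1 and 3. MiR-148b-3p held places 134 and 125 in GFP-AGO2, against 109 and 113 in Control.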
